A study of Mus musculus with 6 samples.

Results

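The genes examined were 8 components of the receptor family shared by IL-12, IL-23, IL-27, IL-6 and LIF, namely *Il12rb1*, *Il12rb2*, *Il23r*, *Il27ra*, *Il6ra*, *Il6st*, *Lifr* and *Ebi3*. They were taken by symbol from 24223 genes in the count files, and all 8 were found and passed the filter on low counts that left 13607 genes for testing. RNA-Seq was carried out on 6 libraries of C57BL/6 mouse CD4+ T cells, 2 each of Naive, Th17 and Th1. Naive were non-activated CD4+CD62L+ cells separated with a magnetic kit from lymph nodes and spleens that had been pooled, from mice 1 to 2 months old. Th17 and Th1 were Naive activated through CD3 and CD28 and collected on day 5 of culture. Th17 cultures also received TGF-β, IL-6, IL-1β and IL-23 together with antibodies against IL-4 and IFN-γ, and Th1 cultures received IL-12, IL-2 and an antibody against IL-4. Ligands of the receptors under study were therefore added to both kinds of culture, and polarization, activation and time in culture cannot be told apart when either is compared with Naive. No genotype other than C57BL/6 was stated, and both replicates of a cell type were described as independent biological replicates.

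Libraries held from 17742158 to 69080017 counts, with the deeper library of each cell type being replicate 1. Summed levels of 6 CD4 T cell markers, given as CPM (a gene's counts divided by the TMM-scaled total of its library and set to a common scale), lay between 2142 and 3173 in all 6 libraries. The 4 Th17 markers summed to 1379 and 1847 CPM in Th17 and to at most 10.4 CPM elsewhere. Of these 4, *Ccr6* was low throughout, with means of 3.59 CPM in Naive and 6.41 CPM in Th17. It was not called between them (log2 fold change 0.86, edgeR adjusted p = 0.235). The 3 Th1 markers summed to 437 and 482 CPM in Th1 and to between 60.9 and 82.8 CPM elsewhere. The 5 markers of naive T cells did not separate the cell types, with sums between 2340.0 and 3958 CPM over the 6 libraries. Markers of other cell types moved with the Th17 label. The 8 neutrophil genes summed to 2860 and 2993 CPM in Th17, against 189 to 310.4 in Naive and 28.2 to 40.8 in Th1, and all 8 were above 10 CPM in both Th17 libraries. Of these 8, *Mpo* went the other way from the sum, with means of 205 CPM in Naive and 63.4 CPM in Th17 (log2 fold change -1.69, edgeR adjusted p = 0.00473), and *Elane* had means of 43.5 and 49.7 CPM (0.19, edgeR adjusted p = 0.758). The 6 macrophage and monocyte genes found of a list of 7 summed to 362 and 934 CPM in Th17 against at most 51.8 CPM elsewhere, and the 4 mast cell and basophil genes to 119 and 301 CPM against at most 34.9 CPM. No gene of these 3 lists was at 0 in a Th17 library. The 4 erythroid genes summed to 573 and 103 CPM in Naive and to at most 2.15 CPM in the others, the 5 B cell genes to at most 15.8 CPM and the 4 CD8 T and NK cell genes to at most 27.0 CPM. In bulk libraries such as these, fewer cells of a type and less RNA per cell cannot be told apart.

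Receptors of this family bind helical cytokines and have no kinase of their own. They signal through Janus kinases bound to their tails, which phosphorylate STAT proteins. IL-12 is read by *Il12rb1* with *Il12rb2*, acts mainly through STAT4 and is known for driving Th1 cells to make interferon gamma, while IL-23 is read by the same *Il12rb1* chain with *Il23r*, acts mainly through STAT3 and sustains Th17 cells. *Il6st* encodes gp130, the signalling chain that *Il6ra*, *Il27ra* and *Lifr* share, and IL-6 acting through it starts the Th17 programme. *Ebi3* is the exception in the group, since it encodes a secreted receptor-like subunit of IL-27 and IL-35 and not a membrane chain.

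*Il12rb2* (chr6:67291318-67376188, GRCm38, minus strand) and *Il23r* (chr6:67422932-67491855, minus strand) are neighbours, 46.7 kb apart, with 4 processed pseudogenes as the only genes annotated between them. *Il6st* lies at chr13:112464070-112510086 on the plus strand, *Il12rb1* at chr8:70808449-70821424 on the plus strand, *Il27ra* at chr8:84030294-84042589 on the minus strand and *Il6ra* at chr3:89864059-89913196 on the minus strand. *Lifr* occupies chr15:7090614-7197489 and *Ebi3* chr17:55952640-55957022, both on the plus strand. The 3 promoters below, the 250 bases before the start of the RefSeq gene (GRCm38.p6), belong to genes chosen after their values were seen, 1 for each cell-type pattern with the largest changes, and none of them holds an annotated exon. They are given 5′ to 3′ on the strand of the gene, and capitals mark matches on either strand to a STAT site (TTCNNNGAA), a nuclear receptor half-site (AGGTCA, or TGACCT on the other strand) or a T-box half-site (TCACAC). No overlap between the marked matches was found.
Il12rb2 (chr6:67376189-67376438): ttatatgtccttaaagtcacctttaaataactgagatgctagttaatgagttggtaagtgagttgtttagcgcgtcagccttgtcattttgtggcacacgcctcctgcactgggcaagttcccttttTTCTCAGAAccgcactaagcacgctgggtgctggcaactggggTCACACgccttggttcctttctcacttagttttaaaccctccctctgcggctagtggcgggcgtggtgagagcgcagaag
Il23r (chr6:67491856-67492105): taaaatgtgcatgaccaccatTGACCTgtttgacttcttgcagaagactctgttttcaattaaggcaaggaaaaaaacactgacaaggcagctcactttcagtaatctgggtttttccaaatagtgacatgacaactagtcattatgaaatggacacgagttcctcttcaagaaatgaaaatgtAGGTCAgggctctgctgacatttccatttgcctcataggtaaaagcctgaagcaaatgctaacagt
Il6st (chr13:112463820-112464069): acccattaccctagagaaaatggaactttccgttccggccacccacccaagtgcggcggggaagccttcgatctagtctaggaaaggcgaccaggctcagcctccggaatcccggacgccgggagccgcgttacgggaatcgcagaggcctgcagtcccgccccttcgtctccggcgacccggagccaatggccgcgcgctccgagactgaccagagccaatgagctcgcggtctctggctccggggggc

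The *Il12rb2* window held 1 STAT site at position -123 from the start and 1 T-box half-site at -80. The *Il23r* window held 2 nuclear receptor half-sites, at -229 and -66. No match to any of the 3 motifs lies in these letters of *Il6st*, whose window is also the richest of these 3 in G and C, at 66.0% against 50.0% for *Il12rb2* and 39.6% for *Il23r*. Of 32851 promoter windows of this length in the RefSeq table, 7.02% held the STAT site, 14.0% the nuclear receptor half-site and 12.3% the T-box half-site, so that such matches are common. A match is a description of the letters and not evidence of a factor bound there. Promoter windows were listed for 6 of the 8 genes.

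The first question was which of these genes differ between Naive and the helper cells polarized from them. Genes were called at an adjusted p-value under 0.01 (edgeR quasi-likelihood F-test, Benjamini-Hochberg over 13607 genes) with an absolute log2 fold change above 1. In Th17 compared with Naive, 1 of the 8 genes was called higher, *Il23r*, beside 4.01% of all genes tested. *Il12rb1*, *Il12rb2*, *Lifr* and *Ebi3* were higher at an unadjusted edgeR p under 0.05 without a call, and DESeq2 called *Il12rb2* and *Ebi3* higher. None of the 8 was called lower by edgeR, beside 1.43% of all genes tested, although *Il6ra* and *Il6st* were lower at an unadjusted p under 0.05, and DESeq2 called *Il6st* lower. In Th1 compared with Naive, *Il12rb1*, *Il12rb2* and *Il6st* rose, 3 of 8 beside 4.64% of all genes, and *Il6ra* fell, 1 of 8 beside 2.81%. In Th1 compared with Th17, *Il12rb2* and *Il6st* were higher, 2 of 8 beside 2.70%, and *Il23r* was lower, 1 of 8 beside 2.83%. The 4 calls in Th1 compared with Naive became 2 without either Naive library and 1 without Th1 replicate 1. *Il27ra*, *Lifr* and *Ebi3* were not called in any comparison. These comparisons share libraries in pairs, and an exact permutation test of 2 libraries against 2 cannot give a two-sided p below 0.333, so the calls rest on the spread that edgeR shares across genes.

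**Figure D1:**
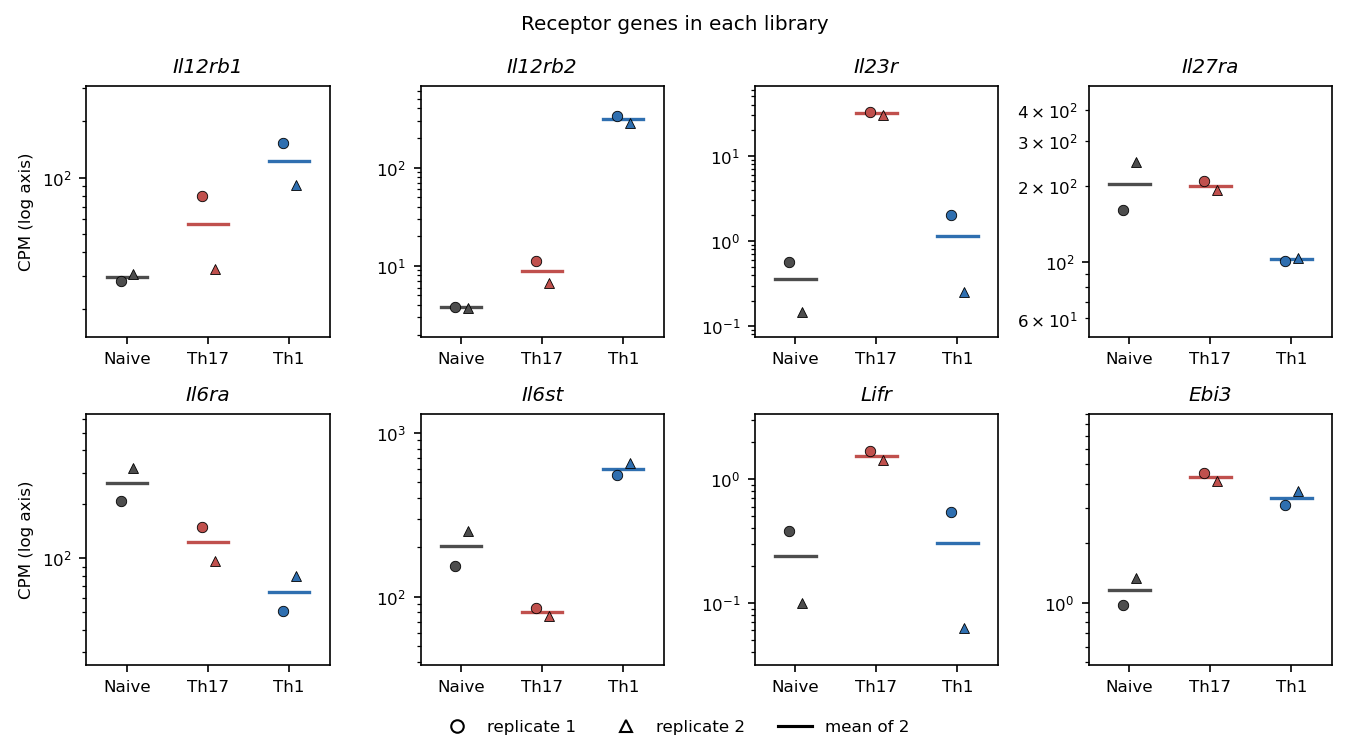
CPM of each of the 8 genes (log axis, a separate range for each gene) in the 6 libraries, with circles for replicate 1, triangles for replicate 2 and a line at the mean of 2 libraries. *Il12rb2* and *Il6st* were highest in both Th1 libraries, *Il23r* in both Th17 libraries and *Il6ra* in both Naive libraries.

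*Il12rb2*, the chain that confers IL-12 signalling, was detected in Naive at 3.82 and 3.76 CPM, in Th17 at 11.1 and 6.68 CPM and in Th1 at 338 and 281 CPM. Both Th1 libraries stood far above the other 4, and the Th17 libraries were above the Naive ones without overlap. The mean of Th1, 309.5 ± 40.4 CPM (SD, n = 2), was 81.6-fold that of Naive in the fitted model (log2 fold change 6.35, SE 0.37, edgeR adjusted p = 1.58e-05) and 34.5-fold that of Th17 (5.11, SE 0.35, edgeR adjusted p = 7.79e-05). Both calls were kept without each library in turn. The smaller difference between Th17 and Naive, 1.24 (SE 0.31), did not pass with edgeR (adjusted p = 0.0252) and did with DESeq2 (adjusted p = 0.00302). Exons of *Il12rb2* overlap those of *Serbp1*, an RNA-binding protein gene on the opposite strand. *Serbp1* was between 546 and 858 CPM in the 6 libraries and was not called in any comparison, and reads from the overlap cannot be told apart if counting ignored strand.

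*Il23r*, the chain particular to the IL-23 receptor, reached 33.1 and 30.4 CPM in Th17, while the Naive libraries had 0.572 and 0.149 CPM and the Th1 libraries 2.01 and 0.253 CPM. Th17 stood above the other 4 libraries, while Naive and Th1 overlapped. The counts behind the low values were 39 and 3 in Naive and 130 and 4 in Th1, against 2161 and 538 in Th17. *Il23r* was 76.8-fold higher in Th17 than in Naive in the fitted model (log2 fold change 6.26, SE 0.83, edgeR adjusted p = 0.00127), and the log2 value ranged from 5.78 without Naive replicate 2 to 7.71 without Naive replicate 1. It was lower in Th1 than in Th17 by 25.2-fold (log2 fold change -4.65, SE 0.76, edgeR adjusted p = 0.00376). That value was -6.96 without Th1 replicate 1 and -3.97 without Th1 replicate 2, and without Th17 replicate 1 the call was lost (adjusted p = 0.0202). Between Th1 and Naive the difference was 1.61 (SE 0.75, edgeR adjusted p = 0.182) and turned to -0.66 without Th1 replicate 1. The neutrophil, macrophage and mast cell lists were also highest in the 2 Th17 libraries, and their part in the level of *Il23r* was not tested.

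*Il12rb1*, the chain that the IL-12 and IL-23 receptors share, had levels of 28.3 and 30.9 CPM for Naive, 80.3 and 32.8 CPM for Th17 and 154 and 90.8 CPM for Th1. The groups were ordered Naive, Th17, Th1 without overlap on this scale, but Th17 replicate 2 lay close to Naive. With CPM from library size alone, Th17 overlapped both, since Naive replicate 2 (33.5) was above Th17 replicate 2 (32.7) and Th17 replicate 1 (87.5) above Th1 replicate 2 (78.3). The SD of the 2 libraries was 1.79 CPM around a mean of 29.6 for Naive, 33.6 around 56.6 for Th17 and 44.5 around 122 for Th1. The rise in Th1 over Naive was 4.14-fold (log2 fold change 2.05, SE 0.42, edgeR adjusted p = 0.00973), just inside the threshold. It kept its direction but not its call without Naive replicate 1 (adjusted p = 0.0528), Naive replicate 2 (0.0294) or Th1 replicate 1 (0.0418). The difference between Th17 and Naive was 0.94 (SE 0.41, edgeR adjusted p = 0.143), being 1.50 between the first replicates and 0.089 between the second. *Il12rb1* was not called between Th1 and Th17 either (1.11, SE 0.41, edgeR adjusted p = 0.0922).

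*Il6st*, the gp130 gene, stood at 155 and 250.5 CPM for the Naive libraries, at 85.6 and 76.4 CPM for Th17 and at 556 and 655 CPM for Th1. The order was Th17, Naive, Th1, with no overlap between any 2 groups. *Il6st* was 7.47-fold higher in Th1 than in Th17 (log2 fold change 2.90, SE 0.33, edgeR adjusted p = 0.000615), and this call was kept without each library in turn. Its rise over Naive, 2.99-fold, was smaller (1.58, SE 0.31, edgeR adjusted p = 0.00761) and kept its call only when Naive replicate 2 was the library left out. The adjusted p was 0.0493 without Naive replicate 1, 0.0167 and 0.0107 without Th17 replicates 1 and 2, and 0.0186 and 0.0343 without Th1 replicates 1 and 2. Th17 against Naive gave -1.32 (SE 0.31), not called by edgeR (adjusted p = 0.0203) and called by DESeq2 (adjusted p = 0.00108).

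*Il6ra*, the IL-6 binding chain, was most abundant in Naive, with 209.7 and 319 CPM, followed by Th17 with 149 and 97.0 CPM and Th1 with 51.1 and 79.3 CPM. No 2 groups overlapped. The fall from Naive to Th1 was 4.06-fold (log2 fold change -2.02, SE 0.35, edgeR adjusted p = 0.00432), and the within-replicate differences were -2.04 and -2.01. This call was lost without Naive replicate 2 (-1.69, adjusted p = 0.013) and without Th1 replicate 1 (-1.70, adjusted p = 0.0389). Th17 lay between and was not called against Naive (-1.10, SE 0.35, edgeR adjusted p = 0.0565) or against Th1, for which Th1 minus Th17 was -0.92 (SE 0.35, edgeR adjusted p = 0.0939). *Il6st* and *Il6ra* thus moved in opposite directions between Naive and Th1, each by its own test. Part of *Il6ra* is overlapped on the other strand by exons of *Gm42809*, for which no counts were used here.

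*Il27ra*, the IL-27 binding chain, gave 160.3 and 248 CPM for Naive, 209 and 192 CPM for Th17 and 101 and 104 CPM for Th1. Naive and Th17 overlapped and both lay above Th1. The log2 difference of Th17 from Naive was -0.024 (SE 0.28, edgeR adjusted p = 0.961). Th1 was lower by values just short of the fold threshold, -0.99 against Naive (SE 0.29, edgeR adjusted p = 0.0414) and -0.97 against Th17 (SE 0.29, edgeR adjusted p = 0.0467). Exons of *Palm3* overlap *Il27ra* on the opposite strand and *Palm3* ranged from 6.26 to 37.6 CPM, below *Il27ra* in all 6 libraries.

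*Lifr*, the LIF receptor chain, was scarce. The Th17 libraries had 110 and 25 counts (1.68 and 1.41 CPM), the Naive libraries 26 and 2 counts (0.382 and 0.0990 CPM) and the Th1 libraries 35 and 1 counts (0.541 and 0.0632 CPM). Both Th17 libraries were above the other 4, and Naive and Th1 overlapped. With these counts the differences were not called, at 2.52 for Th17 over Naive (SE 0.87, edgeR adjusted p = 0.0741) and -2.13 for Th1 over Th17 (SE 0.85, edgeR adjusted p = 0.111). The difference between Th1 and Naive, 0.39 (SE 0.88), turned negative without Naive replicate 2 (-0.11) and without Th1 replicate 1 (-1.97). The part of the marker lists of other cell types, highest in the same 2 Th17 libraries, was not tested.

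*Ebi3*, the secreted subunit, was low throughout, at 0.969 and 1.34 CPM for Naive, 4.51 and 4.13 CPM for Th17 and 3.11 and 3.67 CPM for Th1. Both helper cell types lay above Naive without overlap, with Th17 above Th1. The differences from Naive were 1.92 in Th17 (SE 0.47, edgeR adjusted p = 0.0238) and 1.57 in Th1 (SE 0.47, edgeR adjusted p = 0.0473), neither past the threshold of 0.01, while DESeq2 called both. Th1 and Th17 differed by -0.36 (SE 0.45, edgeR adjusted p = 0.599). *Gm16712*, whose exons overlap *Ebi3* on the other strand, stayed at or below 0.811 CPM.

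**Figure D2:**
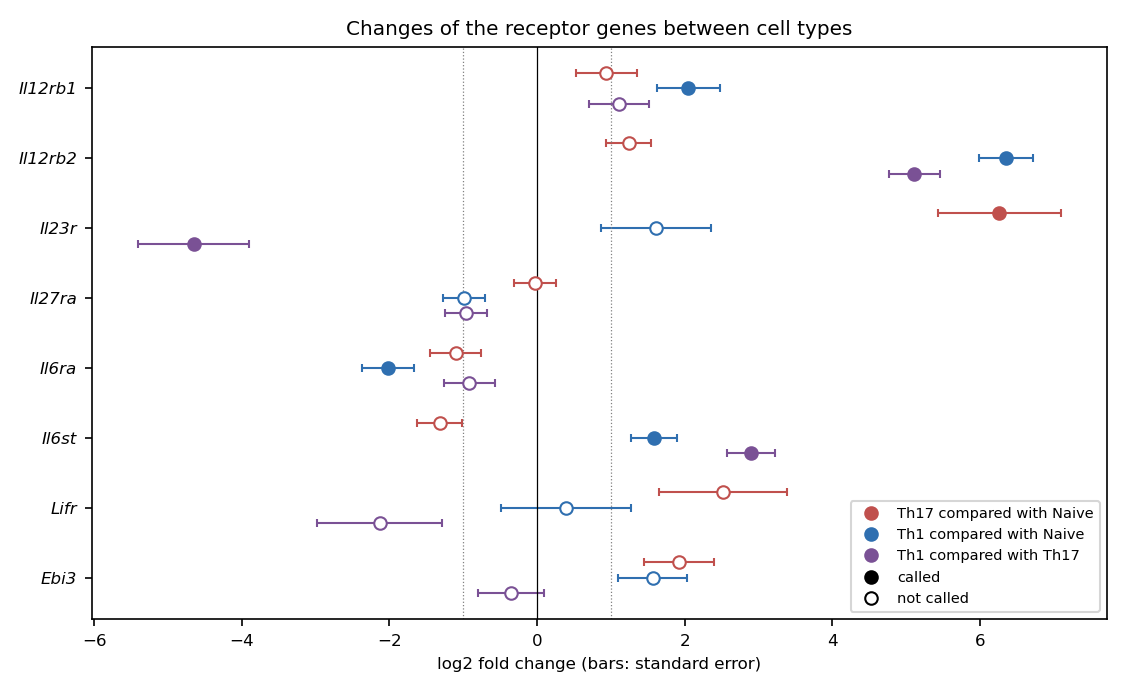
Log2 fold change of each gene in the 3 comparisons (x axis, bars are standard errors, filled points are called, dotted lines at -1 and 1). *Il12rb2* rose by 6.35 in Th1 over Naive and *Il23r* by 6.26 in Th17 over Naive, and the points of *Il6st* lay on opposite sides of 0 for Th1 over Naive and Th17 over Naive.

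Since a receptor needs both of its chains, levels were next compared between genes, as CPM per kilobase of the union of annotated exons, a scale on which genes of different length can be set side by side. In Naive the order was *Il27ra* at 58.4 ± 17.8, *Il6ra* at 30.6 ± 8.98, *Il6st* at 18.3 ± 6.10, *Il12rb1* at 7.21 ± 0.437, *Ebi3* at 0.999 ± 0.226 and *Il12rb2* at 0.999 ± 0.00983 CPM per kilobase, with *Il23r* and *Lifr* at or under 0.145 (mean ± SD, n = 2). *Ebi3* and *Il12rb2* could not be ordered, as they overlapped on this scale while *Il12rb2* was the higher with the length of the longest transcript. The libraries of the other neighbours in this list did not overlap on this scale. With the length of the longest transcript, however, *Il6ra* (24.3 and 37.0) and *Il6st* (17.8 and 28.9) overlapped in Naive, so their order depends on the length used. In Th17 *Il27ra* led at 57.4 ± 3.38, and *Il6ra* at 14.3 ± 4.29, *Il12rb1* at 13.8 ± 8.18 and *Il23r* at 12.8 ± 0.747 overlapped each other. *Il6st* at 7.30 ± 0.584 came next, and *Ebi3*, *Il12rb2* and *Lifr* were below 4 CPM per kilobase on average. In Th1 *Il12rb2* had the highest level at 81.6 ± 10.7, ahead of *Il6st* at 54.6 ± 6.35, *Il12rb1* at 29.8 ± 10.8 and *Il27ra* at 29.4 ± 0.603, of which the last pair overlapped.

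**Figure D3:**
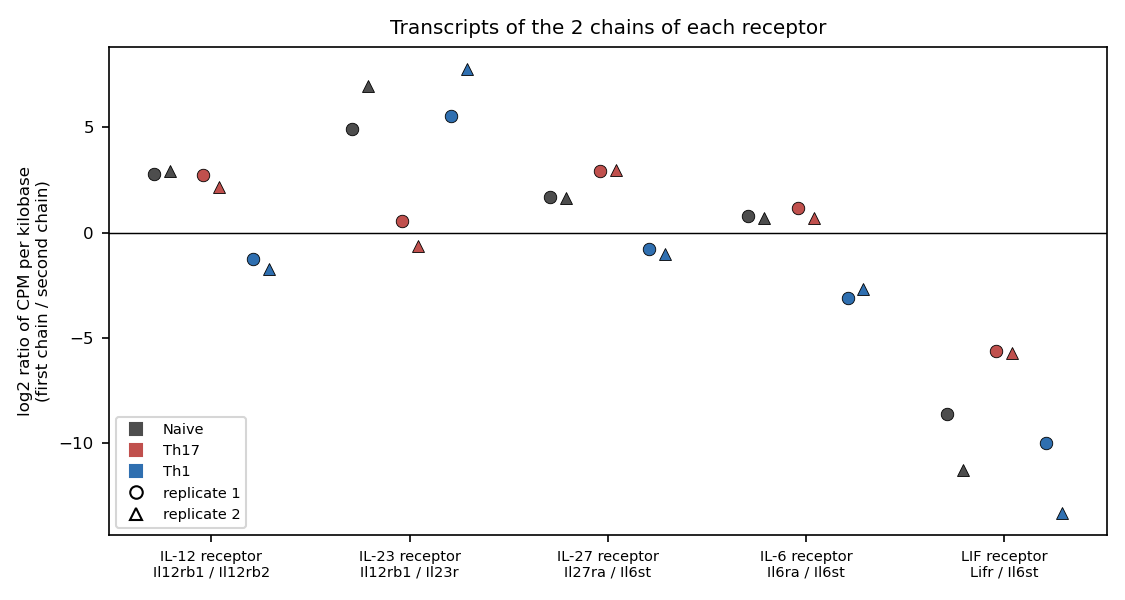
Log2 ratio of CPM per kilobase between the chains of 5 receptors (y axis) in each library, with colours for cell types and circles and triangles for replicates 1 and 2. The points of the IL-12, IL-27 and IL-6 receptors lay above 0 in Naive and Th17 and below 0 in Th1, and those of the IL-23 receptor lay nearest to 0 in Th17.

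The ratio of the chains changed side between cell types for 3 of the 5 receptors. For the IL-12 receptor, *Il12rb1* exceeded *Il12rb2* by 6.86- and 7.58-fold in Naive and by 6.70- and 4.54-fold in Th17, whereas *Il12rb2* exceeded *Il12rb1* by 2.38- and 3.35-fold in Th1. For the IL-6 receptor, *Il6ra* exceeded *Il6st* by 1.74- and 1.64-fold in Naive and by 2.24- and 1.63-fold in Th17, and *Il6st* exceeded *Il6ra* by 8.48- and 6.43-fold in Th1. The IL-27 receptor behaved in the same manner, with *Il27ra* above *Il6st* by 3.29- and 3.14-fold in Naive and by 7.76- and 7.99-fold in Th17, and *Il6st* above *Il27ra* by 1.73- and 1.98-fold in Th1. In each of these receptors the 2 libraries of a cell type fell on the same side, and the side was the same with the length of the longest transcript in place of the union of exons. The excess of *Il6ra* over *Il6st* was smaller with that length, however. Its log2 ratio went from 0.80 and 0.71 to 0.45 and 0.36 in Naive, and from 1.16 and 0.71 to 0.81 and 0.35 in Th17. All of these are ratios of transcripts, which the data do not relate to protein on the cell surface.

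For the IL-23 receptor, *Il12rb1* exceeded *Il23r* by 30.0- and 126-fold in Naive and by 46.3- and 218-fold in Th1. In Th17 the levels of the chains were closer, with *Il12rb1* 1.47-fold higher in replicate 1 and *Il23r* 1.53-fold higher in replicate 2. This balance depends on the length used. With the longest transcript, the log2 ratio of *Il12rb1* to *Il23r* in Th17 went from 0.56 and -0.61 to 1.07 and -0.099. *Il6st* exceeded *Lifr* by 49.4-fold or more in all 6 libraries. The neighbouring genes *Il12rb2* and *Il23r*, whose products share the partner *Il12rb1*, were also compared directly, a comparison chosen after the data were seen. *Il12rb2* was the higher by 4.37- and 16.6-fold in Naive and by 110- and 729-fold in Th1, and *Il23r* was the higher by 4.55- and 6.95-fold in Th17. The lower gene in Naive replicate 2 and Th1 replicate 2 had 3 and 4 counts, so that the size of those ratios is uncertain.

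A list of 39 other genes of these pathways was then read from the same test, of which 30 passed the filter on low counts. In Th17 compared with Naive 12 of the 30 rose and 2 fell, beside 4.01% and 1.43% of all genes tested. In Th1 compared with Naive 12 rose and 1 fell, beside 4.64% and 2.81%, and in Th1 compared with Th17 6 were higher and 4 lower, beside 2.70% and 2.83%. Without Naive replicate 1 the calls in the first 2 comparisons numbered 9 and 7, and in the last they numbered 4 without Th17 replicate 1 and 5 without Th17 replicate 2. The median log2 fold change of the 30 was 0.67, 1.00 and 0.30 in these comparisons, against -0.019, -0.017 and -0.027 over all genes tested. For the 8 receptor genes the medians were 1.09, 1.57 and -0.64.

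Of 12 ligand genes 5 were tested, and *Lif*, *Il6* and *Osm* were called in at least 1 comparison. *Lif*, which encodes the ligand of the scarce *Lifr* chain, went from 2.26 and 1.93 CPM for Naive to 32.1 and 24.6 CPM for Th17 and 112 and 56.7 CPM for Th1. It rose in both helper cell types (3.75 in Th17, SE 0.40, edgeR adjusted p = 0.000447, and 5.32 in Th1, SE 0.43, edgeR adjusted p = 8.96e-05). *Osm*, oncostatin M, another gp130 cytokine, measured 16.7 and 22.2 CPM for Naive, 30.1 and 24.2 CPM for Th17 and 70.7 and 144 CPM for Th1. It was called higher in Th1 than in Naive (2.46, SE 0.37, edgeR adjusted p = 0.00212) and than in Th17 (1.98, SE 0.37, edgeR adjusted p = 0.00716). *Il6* was called higher in Th17 than in Naive (edgeR adjusted p = 0.00178), at 2.36 and 6.79 CPM from 154 and 120 counts against 2 counts and none, and had 39 and 3 counts in Th1. No fold is given for it because Naive was at the limit of detection, and the part of the neutrophil, macrophage and mast cell lists, highest in the same libraries, was not tested. The ligands left untested, among them *Il12b*, *Il23a*, *Il27*, *Il11*, *Cntf* and *Ctf1*, had at most 38 counts in any library.

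Among 4 further receptors, *Il31ra*, the IL-31 receptor chain, was called lower in both helper cell types, with 244 and 20 counts in Naive, 4 and none in Th17 and 3 and none in Th1 (edgeR adjusted p = 0.00794 and 0.00579). The Naive libraries differed from each other, at 3.58 and 0.990 CPM. The erythroid list was also highest in Naive, at 573 and 103 CPM, and its part in the level of *Il31ra* was not tested. Of 6 kinases and STATs, *Stat4*, the transcription factor of IL-12 signalling, was called in 1 comparison. Its libraries gave 46.9 and 64.7 CPM for Naive, 67.8 and 64.8 CPM for Th17 and 121 and 159 CPM for Th1, a rise of 1.33 in Th1 over Naive (SE 0.28, edgeR adjusted p = 0.00998) at the edge of the threshold. *Jak1*, *Jak2*, *Tyk2* and *Stat3* were not called.

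Of 6 inhibitors and sheddases, *Socs1* and *Socs3*, feedback inhibitors of cytokine receptors, were called. *Socs3*, which binds gp130, had 81.5 and 131 CPM for Naive, 692 and 510.3 CPM for Th17 and 349 and 495 CPM for Th1. It rose in both helper cell types (2.50 in Th17, SE 0.36, edgeR adjusted p = 0.00178, and 1.99 in Th1, SE 0.35, edgeR adjusted p = 0.0043). *Socs1* was highest in Th1, where it had 209 and 312 CPM, against 80.9 and 64.2 CPM for Th17 and 32.3 and 44.9 CPM for Naive. It was called in Th1 against Naive (2.75, SE 0.32, edgeR adjusted p = 0.00051) and against Th17 (1.84, SE 0.31, edgeR adjusted p = 0.00453). *Adam10* and *Adam17*, which shed the IL-6 receptor, were not called.

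Of 5 IL-12 target genes, *Ifng*, *Tbx21*, *Il18r1* and *Il18rap* each rose in Th1 over Naive, beside 4.64% of all genes tested. The same 4 were each higher in Th1 than in Th17, beside 2.70%. In Th17 over Naive 3 of the 5, *Ifng*, *Il18r1* and *Il18rap*, also rose, beside 4.01%, and 1 fell, beside 1.43%. *Tbx21*, the T-bet gene, had 23.3 and 20.8 CPM for Naive, 4.58 and 2.72 CPM for Th17 and 138 and 158 CPM for Th1, and was the one of them to fall in Th17 (-2.57, SE 0.32, edgeR adjusted p = 0.000846). *Ifng*, interferon gamma, had 4.55 and 4.56 CPM for Naive and 177 and 157 CPM for Th1, and it also rose in Th17, to 64.6 and 48.7 CPM (3.64, SE 0.29, edgeR adjusted p = 7.75e-05). *Il18r1* and *Il18rap*, the IL-18 receptor chains, followed that order, with means of 48.9, 168 and 828 CPM and of 19.5, 90.4 and 331 CPM in Naive, Th17 and Th1.

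All 6 IL-6 and IL-23 target genes rose in Th17 over Naive, beside 4.01% of all genes tested. Of these, 3 also rose in Th1 over Naive, beside 4.64%, and 4 were lower in Th1 than in Th17, beside 2.83%. *Il17a* and *Il17f* went from at most 0.352 CPM in Naive to 526 and 691 CPM and to 769 and 1090.1 CPM in Th17, and were at or below 0.541 CPM in Th1. *Il21*, a cytokine induced by IL-6, had means of 1.74, 42.1 and 13.5 CPM in Naive, Th17 and Th1, and was called higher in both helper cell types.

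**Figure D4:**
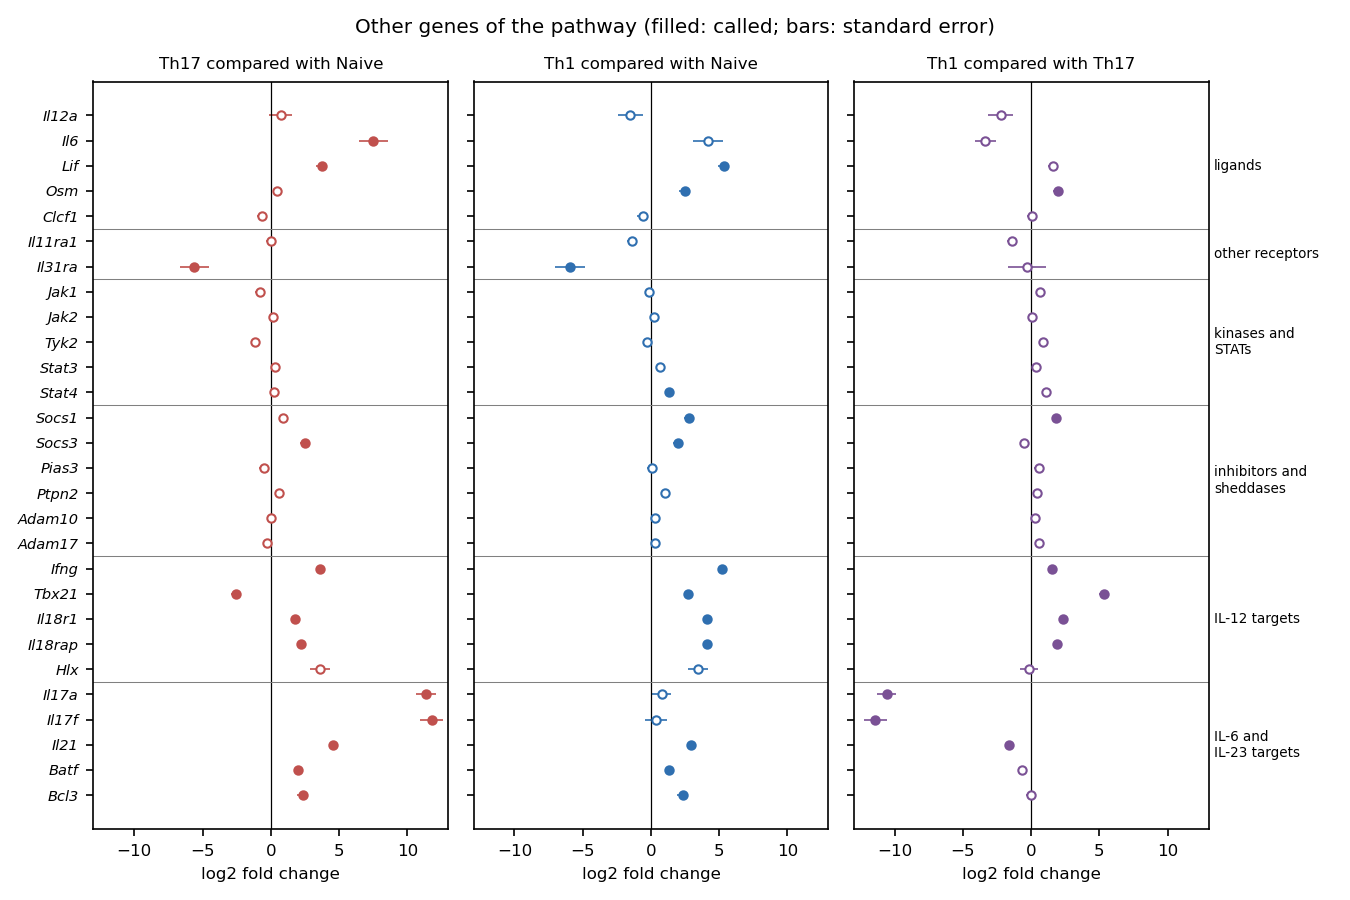
Log2 fold change (x axis, bars are standard errors, filled points are called) of tested pathway genes in the 3 comparisons, grouped by role. The IL-6 and IL-23 targets lay to the right in Th17 over Naive, the kinases and STATs drawn had 1 filled point in the 3 panels, *Stat4* in Th1 over Naive, and fitted values of *Il6* and *Il31ra* rest on groups at or near the limit of detection.

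The genes nearest in pattern to each called receptor gene were those with the smallest root mean square (RMS) difference in centred log2 CPM over the 6 libraries. *Il12rb2* was followed most closely by *Csf1*, the macrophage growth factor gene, at 0.133, and *Csf1* had 3.83 and 4.61 CPM for Naive, 10.3 and 7.13 CPM for Th17 and 355 and 262 CPM for Th1. *Pclo* (0.188, with no count in Naive) and *Gbp2*, an interferon-induced GTPase gene (0.346), came next. *Il6st* was nearest to *Scd4* (0.0855, from 1 to 44 counts a library), *Il10ra*, the IL-10 receptor chain (0.151), and *Pdzd2* (0.173). *Il10ra* had 31.8 and 39.6 CPM for Naive, 13.1 and 12.5 CPM for Th17 and 85.4 and 118 CPM for Th1. The nearest genes to *Il6ra* were *Sh2d4b* (0.0455, from 4 to 49 counts a library), *Cnga1* (0.187) and *1700102P08Rik* (0.197, from 6 to 91 counts). Those to *Il12rb1* were *Gpr55* (0.213), *E2f2* (0.220) and *Ggn* (0.240, from 8 to 131 counts). Distances from so few counts are uncertain. *Il23r* had no neighbour as close, with *C5ar1*, the complement C5a receptor known from myeloid cells, at 0.392, *Ankrd33b* at 0.408 and *Pdpn*, podoplanin, at 0.500. These 3 genes had at most 4 counts in each Naive library. The distances describe 6 libraries that fall into 3 cell types, so that many genes can share such a pattern.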

How the data were processed

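RNA-Seq was measured in 6 libraries. According to the study's methods and the submitters' processing notes, the authors mapped reads to mm10 with HISAT2 2.2.1, removed duplicates and counted reads per gene with HTSeq 0.13.5. The deposited values are raw counts, 1 set per library, without normalization. The methods name default HTSeq parameters and the supplementary code a reverse-stranded setting without a step that removes duplicates, so the handling of strand is uncertain. Poly-A capture and Smart-seq2 amplification were used without molecular identifiers, and counts of PCR-amplified reads are not independent molecules.

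The deposited counts were tested with edgeR 4.0.16 under R 4.3.3 (TMM scaling, filterByExpr by cell type, glmQLFit and glmQLFTest). One model covered all 6 libraries with no term besides cell type, and p-values were adjusted by Benjamini-Hochberg over 13607 genes. The standard error (SE) is the absolute log2 fold change divided by the square root of F. Log2 CPM used a prior count of 2, and 3 counts or fewer were taken as the limit of detection. Positions and exon lengths came from GENCODE vM21 (GRCm38, the assembly also called mm10) and promoters from RefSeq. Alternatives used DESeq2 1.42.0, other scalings, filters, thresholds and designs, and the omission of each library. The main edgeR fit and the DESeq2 fit without a replicate block were tested on simulated counts, for Th17 compared with Naive only. The other alternatives were not tested in this way. The receptor genes, pathway lists and marker lists were chosen with earlier results of these data known. All 8 receptor genes are named, with at most 4 called genes of each pathway list, those of smallest adjusted p, and the 3 genes nearest in pattern to each called receptor gene. *Jak1*, *Jak2*, *Tyk2*, *Stat3*, *Adam10* and *Adam17* were added for their roles. A few pathway genes within these rules were counted but are left out of the text and plots.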

Additional observations from a re-analysis of the deposited data

How the results depend on the processing

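Of 402 values of the 8 receptor genes under the alternatives, 358 kept their direction and their side of the threshold, 18 lost a call, 17 gained one and 9 changed sign, none of them called. The number of receptor genes called in Th17 over Naive, 1 with edgeR, was 4 with DESeq2, 5 with no filter on low counts, 0 with at least 10 counts in every library, where *Il23r* is not tested, and 4 at an adjusted p under 0.05. In Th1 over Naive it was 4, and 2 with library size alone, 1 in a test against a fold change of 2 and 1 to 3 without single libraries. Pathway genes called numbered 14, 13 and 10 in Th17 over Naive, Th1 over Naive and Th1 over Th17. They numbered 7 and 5 in the last 2 against a fold change of 2, and 9 to 15, 7 to 12 and 4 to 11 without single libraries, fewest without Naive replicate 1 in the first 2 and without Th17 replicate 1 in the third. *Il27ra* in Th17 over Naive was 0.025 with at least 10 counts in every library, 0.011 with DESeq2 and the replicate block, 0.016 in only the 4 libraries compared and -0.31 to 0.31 without single libraries. In Th1 over Naive, *Il23r* ranged from -0.66 to 3.07 and *Lifr* from -1.97 to 1.80 without single libraries. Where a library is left out, the lone one is assumed to vary like the other groups.

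The labels do not say whether the replicate number pairs libraries across cell types, and it was not used as a pairing. Deviations of replicate 1 from replicate 2 had correlations of -0.23 (Naive and Th17), 0.17 (Naive and Th1) and 0.077 (Th17 and Th1). Such correlations cannot decide whether libraries of the same number shared a source. With the replicate block in edgeR, 1, 4 and 3 receptor genes and 15, 14 and 11 pathway genes were called, and with the replicate block in DESeq2 4, 4 and 3 receptor genes and 15, 15 and 14 pathway genes. The crossed pairing of Naive and Th17, added after the data were seen, gave 3 receptor genes and 1499 genes in all, against 1013 genes in the same 4 libraries without it. The replicate block in edgeR called 1035, 1402 and 1041 genes in all.

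Over all genes, 739, 1014 and 752 were called. DESeq2 called 1738, 1928 and 1824, no filter 2154, 2259 and 2232, an adjusted p under 0.05 2063, 2164 and 2112, at least 10 counts 343, 674 and 411, and a test against a fold change of 2 403, 511 and 349. With library size alone the median gene was at -0.052, -0.26 and -0.24 in place of -0.019, -0.017 and -0.027, and the share of calls in Th1 over Th17 that were higher went from 48.8% to 36.5%. The cause of these changes was not tested. The 2 libraries per cell type and the few counts of *Il23r*, *Lifr* and *Ebi3* limit what could be called.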
